A study of Danio rerio with 4 samples.

Results

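A set of 9 genes of iron transport and storage was followed in sorted cardiomyocytes of the adult zebrafish (Danio rerio) heart. They are the transferrin gene tfa, the transferrin receptor genes tfr1a and tfr1b, the metalloreductase gene steap4, the ferritin gene fth1a, the ferroportin gene slc40a1, the haem oxygenase gene hmox1a, and ireb2 and aco1, the genes of both iron regulatory proteins. All 9 had exactly 1 row among the 18105 genes of the deposited table, and they were found by gene symbol. They were chosen by their normalized counts in the contrast between the cell groups, because tfa was high and slc40a1 and steap4 were low in the reporter-active cells. Differences of these 9 genes between the groups are therefore given as a description, with no test.

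RNA was sequenced from ventricular cardiomyocytes sorted by flow cytometry, with 2 libraries in each of 2 groups. Cells labelled tp1:EGFP+/myl7:DsRed2-NLS+ (called tp1:EGFP+ here, 2000 sorted cells) carried EGFP under tp1, an element that responds to Notch signalling, together with a nuclear red protein under myl7, a cardiomyocyte promoter. The myl7:EGFP+ group (7000 sorted cells) carried EGFP under the myl7 promoter and stands for cardiomyocytes in general, so it can include reporter-active cells. All fish were adult, no other treatment is given, and the labels do not say how many fish were pooled or whether libraries came from separate fish. The p-values below therefore rest on the spread between these libraries, which may be technical. The test used, limma, combined each gene's own spread with a trend over all genes tested.

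Each value below is a read count that the authors normalized between libraries and rounded to a whole number, called a normalized count. The values summed to 1660511 and 2041552 in tp1:EGFP+ replicates 1 and 2, and to 1552636 and 2130733 in myl7:EGFP+ replicates 1 and 2. In replicate 2, the values were rounded multiples of 2.98 in tp1:EGFP+ and of 3.109 in myl7:EGFP+, so these are the values of 1 read, and the estimated depths were 685085 and 685344 reads. In replicate 1 of each group 1 read was worth less than 1, and the depth was therefore over 1660511 reads in tp1:EGFP+ and over 1552636 in myl7:EGFP+. Cardiomyocyte markers summed to 58760 and 119703 in tp1:EGFP+ and to 56553 and 132105 in myl7:EGFP+. In the test between the groups 24 of the 28 tested did not pass, 1 was higher (hand2) and 3 were lower in tp1:EGFP+ (ckmb, tnnc1b and tbx5a). Replicates of many of these genes differed widely, as for myl7, with 765 and 3916 in tp1:EGFP+ and 565 and 4206 in myl7:EGFP+. Standard errors reached 3.59 on the log2 scale (ttn.2). The replicates of ttn.2 lay closer, at 18845 and 23416 against 18257 and 22692, so its standard error reflects the trend more than its own spread. The 24 are therefore not shown to be alike between the groups. With bulk RNA, fewer cells of a type and less RNA per cell cannot be told apart.

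Vertebrate cells take up iron as ferric iron bound to transferrin, which transferrin receptors carry into endosomes. There, metalloreductases of the STEAP family turn it into ferrous iron, which a transporter passes into the cytosol. Ferritin stores the surplus, ferroportin is the known cellular exporter, and haem oxygenase frees iron from haem. The iron regulatory proteins bind stem-loops in the messenger RNAs of several of these genes when iron is scarce, which blocks ferritin translation and protects the transferrin receptor message from decay. Heart muscle uses much iron for its haem proteins and for the iron-sulphur clusters of the respiratory chain.

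In tp1:EGFP+ cells the genes of transferrin, of both its receptors and of the iron sensor ireb2 had higher values than in myl7:EGFP+ cells, whereas ferroportin, haem oxygenase, the metalloreductase steap4 and the sensor aco1 were at or near 0. Ferritin differed by less than its replicates. In 8 of the 9 genes the values of the groups did not overlap, with 4 higher and 4 lower in tp1:EGFP+. Of all 9921 tested genes (mean normalized count of at least 10 over the 4 libraries), 68.9% did not overlap between the groups, 34.1% of them higher and 34.8% lower as shares of all tested genes. That contrast was used to choose the 9 genes, so nothing is read from the count. The filter was passed by 8 of them, and hmox1a was under it.

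**Figure D1:**
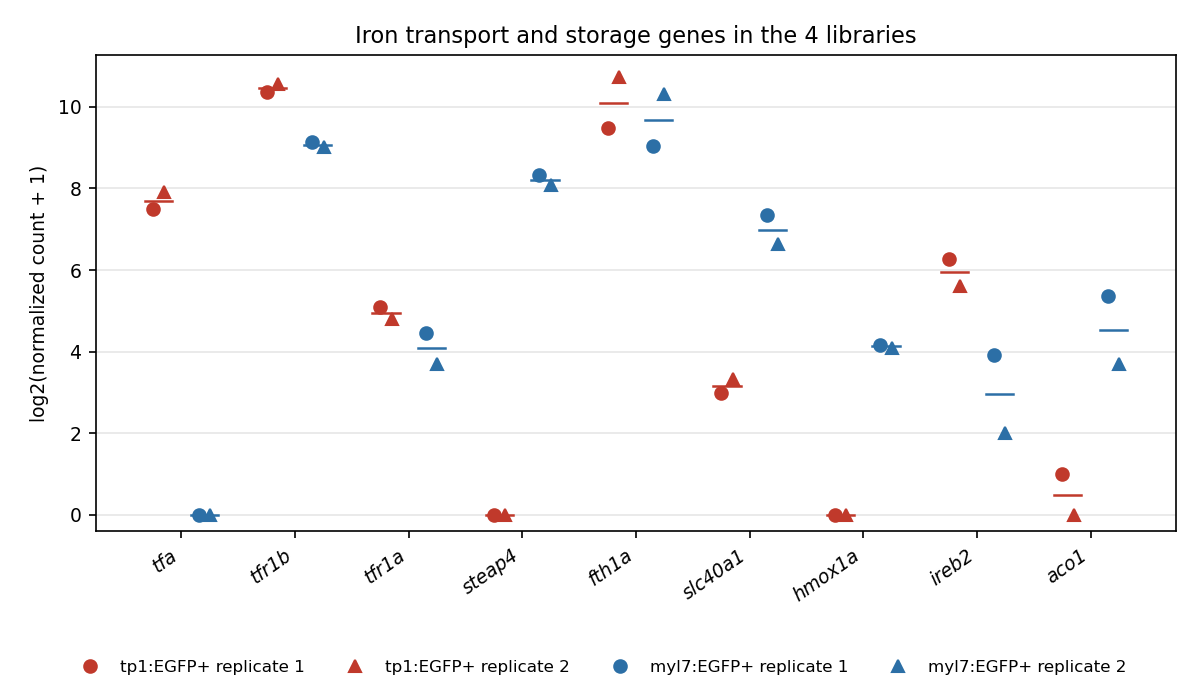
Normalized counts of the 9 iron genes on a log2(value + 1) axis, for both tp1:EGFP+ libraries (red) and both myl7:EGFP+ libraries (blue), with circles for replicate 1, triangles for replicate 2 and bars for the mean of 2. For tfa, steap4 and hmox1a one of the groups lies at 0, and fth1a is the single gene whose groups overlap.

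The plasma iron carrier transferrin is made mainly by the liver in vertebrates. Its gene tfa (ENSDARG00000016771, chromosome 2, 16780643 to 16794710, plus strand, GRCz11) had 178 and 238 normalized counts in tp1:EGFP+ replicates 1 and 2, against 0 and 0 in myl7:EGFP+. Both reporter-active libraries were high and the gene was listed at 0 in both libraries of cardiomyocytes at large. In myl7:EGFP+ replicate 2, a count of 0 allows up to 3 reads, worth 9.33 normalized counts, for counting error only.

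Few hepatocyte markers had a row, and the values of those without a row are not known. Of 23 symbols, 7 had a row and 2 were tested, with 0 called by limma and 1 at an unadjusted p under 0.05. The clotting genes f2 and fgg were at 0 in every library. The 7 genes summed to 73 and 185 in tp1:EGFP+ and to 40 and 74 in myl7:EGFP+. Most of the tp1:EGFP+ sums came from rbp4, which encodes a retinol carrier. It had 66 and 155 normalized counts in tp1:EGFP+, against 17 and 37 in myl7:EGFP+ (adjusted p = 0.0645 by limma, not called). Among the remaining markers, named after their values were seen, only cyp2ad2 was higher in tp1:EGFP+, and only in replicate 2. These markers were ttr (0 and 0 against 11 and 3), plg (3 and 12 against 3 and 25), apoa1b (2 and 3 against 3 and 6) and cyp2ad2 (2 and 15 against 6 and 3).

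Transferrin receptors bind the loaded carrier at the cell surface. The tfr1b gene (ENSDARG00000077372, chromosome 24, 26017094 to 26031204, plus strand, GRCz11) had 1310 and 1502 normalized counts in tp1:EGFP+ replicates 1 and 2, against 559 and 513 in myl7:EGFP+. Both reporter-active libraries stood above both others, by a gap of 751. The means were 1406 ± 136 in tp1:EGFP+ and 536 ± 32.5 in myl7:EGFP+ (SD, n = 2), a ratio of 2.62. This ratio was 2.34 within replicate 1 and 2.93 within replicate 2, and for replicate 2 its 95% exact binomial interval on the estimated reads was 2.45 to 3.51, which covers counting error only.

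The paralogue tfr1a is needed for iron uptake by developing zebrafish red cells. The tfr1a gene (ENSDARG00000101322, chromosome 2, 4849269 to 4874966, minus strand, GRCz11) had 33 and 27 normalized counts in tp1:EGFP+ against 21 and 12 in myl7:EGFP+. Its groups were separated by a gap of only 6. The means were 30.0 ± 4.24 in tp1:EGFP+ and 16.5 ± 6.36 in myl7:EGFP+ (SD, n = 2). In replicate 2 the values stood for about 9 reads in tp1:EGFP+ and 4 in myl7:EGFP+, and the interval of that ratio, 0.602 to 9.58, includes 1. How the authors' counting treated reads shared by both paralogues is not given in the sources used here.

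Globin transcripts moved in the same direction as the receptors, whereas other red cell markers went either way. The 5 adult globin rows summed to 145 and 322 in tp1:EGFP+ and to 2 and 0 in myl7:EGFP+. Of 8 tested erythroid markers, 6 were higher, namely the 5 globin rows and epb41b, and 1, the spectrin gene sptb, was lower. The gene epb41b had 78 and 92 in tp1:EGFP+ against 1 and 0 in myl7:EGFP+ (adjusted p = 0.00245 by limma). The marker slc4a1a, named after its values were seen, had 11 and 18 in tp1:EGFP+ against 25 and 22 in myl7:EGFP+ (adjusted p = 0.328 by limma, not called). The 10 marker rows together summed to 651 and 873 in tp1:EGFP+ and to 877 and 861 in myl7:EGFP+, of which sptb gave 415 and 435 in tp1:EGFP+ and 830 and 836 in myl7:EGFP+. The part of red cell RNA in the values of tfr1b and tfr1a was not tested.

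Metalloreductases turn ferric into ferrous iron. The steap4 gene (ENSDARG00000055901, chromosome 16, 27734872 to 27749172, minus strand, GRCz11) had 0 and 0 normalized counts in tp1:EGFP+, against 320 and 270 in myl7:EGFP+. The 2 groups lay far apart, and the 0 of tp1:EGFP+ replicate 2 allows up to 8.94 normalized counts, for counting error only. The number of sorted cells also differed, with 2000 in tp1:EGFP+ and 7000 in myl7:EGFP+. Genes above 0 numbered 12558 and 11516 in tp1:EGFP+ replicates 1 and 2, against 14281 and 12417 in myl7:EGFP+. Of the tested genes, 3.47% had a value of 0 throughout tp1:EGFP+, and 2.35% throughout myl7:EGFP+. The part of cell number in values at or near 0, of steap4 and of other genes, was not tested.

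The other ferric reductases with a row went different ways. No row was found for the symbols steap1 and steap3, so their values are not known. The steap4 relative steap2 had 0 and 0 normalized counts in tp1:EGFP+ against 38 and 12 in myl7:EGFP+ and fell (adjusted p = 0.00716 by limma). By contrast cybrd1, which encodes a cytochrome b reductase known from gut iron uptake, rose to 119 and 104 in tp1:EGFP+, against 1 and 0 in myl7:EGFP+ (log2 difference 6.31 ± 0.55 SE, adjusted p = 0.00221 by limma). The ferric-chelate reductase gene frrs1b, named after its values were seen, had 109 and 66 in tp1:EGFP+ against 32 and 16 in myl7:EGFP+ (log2 difference 1.86 ± 0.51 SE, adjusted p = 0.0475 by limma). The reductase gene cyb561a3a, also named after its values were seen, had 2 and 12 against 15 and 37 and was not called (adjusted p = 0.154 by limma).

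**Figure D2:**
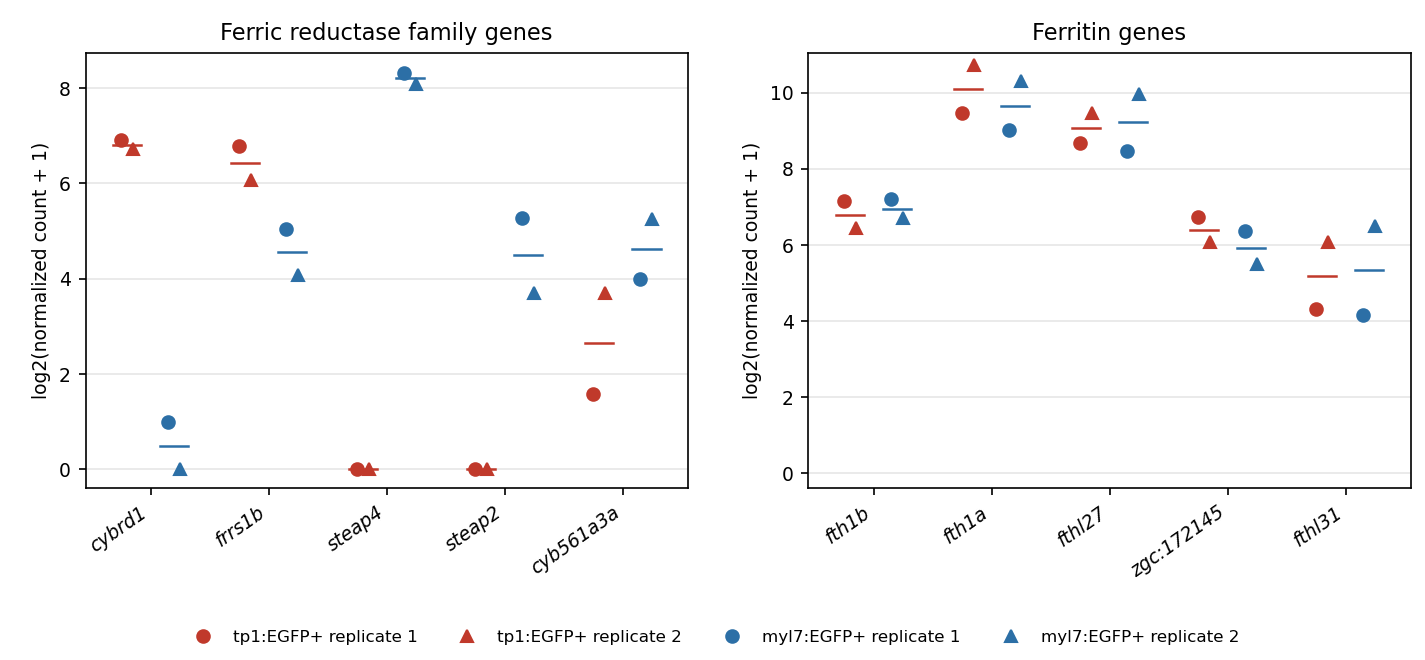
Normalized counts on a log2(value + 1) axis of ferric reductase family genes (left) and of the tested ferritin genes (right), with tp1:EGFP+ in red, myl7:EGFP+ in blue, circles for replicate 1, triangles for replicate 2 and bars for the mean of 2. The reductases cybrd1 and frrs1b lie higher and steap4 and steap2 lower in tp1:EGFP+, whereas every ferritin gene overlaps between the groups.

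Ferritin forms the shell in which cells store iron, and fth1a encodes a heavy chain. The fth1a gene (ENSDARG00000015551, chromosome 7, 12927944 to 12936708, plus strand, GRCz11) had 713 and 1693 normalized counts in tp1:EGFP+ replicates 1 and 2, against 522 and 1262 in myl7:EGFP+. The groups overlapped, because replicate 2 was the higher library in each. The log2 difference between the replicates, 2 minus 1, was 1.25 in tp1:EGFP+ and 1.27 in myl7:EGFP+, while the log2 difference between the groups was 0.45 within replicate 1 and 0.42 within replicate 2. A replicate difference above 1 in both groups occurred in 3.81% of the tested genes. The log2 difference between the groups was 0.44 with all 4 libraries, but -0.19 without tp1:EGFP+ replicate 2 and -0.20 without myl7:EGFP+ replicate 1.

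The other ferritin genes also overlapped between the groups or were too low to test. The deposited table names 10 rows ferritin, fth1a included, of which 5 passed the filter of the test. Leaving fth1a aside, 0 were called by limma, and 0 had an unadjusted p under 0.05. Standard errors reached 1.00 on the log2 scale (fthl31), so a modest change could go uncalled. All 10 together summed to 1386 and 2626 in tp1:EGFP+ and to 1127 and 2515 in myl7:EGFP+. The ferritin gene fthl27 followed the replicate pattern of fth1a, with 407 and 712 in tp1:EGFP+ against 355 and 1001 in myl7:EGFP+. The heavy chain gene fth1b, named after its values were seen, was lower in replicate 2 of each group, with 141 and 86 against 148 and 103. The fthl genes lie close together on chromosome 3, and whether they share reads was not tested.

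Ferroportin is the known route of iron out of vertebrate cells. Its gene slc40a1 (ENSDARG00000000241, chromosome 9, 41103127 to 41113878, plus strand, GRCz11) had 7 and 9 normalized counts in tp1:EGFP+ replicates 1 and 2, against 161 and 99 in myl7:EGFP+. Every reporter-active value lay under every other value, by a gap of 90. The means were 8.0 ± 1.41 in tp1:EGFP+ and 130 ± 43.8 in myl7:EGFP+ (SD, n = 2). In replicate 2 the values stood for about 3 and 32 reads, so tp1:EGFP+ was lower by a factor of 11.1, with a 95% exact binomial interval of 3.48 to 56.8 for counting error.

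Haem oxygenase opens the haem ring and releases its iron. The gene hmox1a (ENSDARG00000027529, chromosome 3, 26011482 to 26017831, minus strand, GRCz11) had 0 and 0 normalized counts in tp1:EGFP+, against 17 and 16 in myl7:EGFP+. The value of 16 stood for about 5 reads. Its mean of 8.25 over the libraries kept it under the filter of the test.

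Macrophages recycle iron through both of these genes in vertebrates. Of 24 leukocyte symbols, 14 had a row and 3 were tested, of which 1 rose and 2 fell. The defining genes mpeg1.1, ptprc and coro1a were at 0 in all 4 libraries. Of the other untested markers, named after their values were seen, spi1a had 1 and 0 in tp1:EGFP+ against 5 and 12 in myl7:EGFP+. For mpx the values were 0 and 0 against 2 and 9, and for c1qa 0 and 0 against 2 and 3. The groups of c1qc, cd74a, csf1rb, grn2 and lcp1 overlapped. The part of leukocyte RNA in the values of slc40a1 and hmox1a was not tested. The 14 rows summed to 25 and 54 in tp1:EGFP+ and to 78 and 98 in myl7:EGFP+. The antigen presentation gene cd74b had 1 and 0 against 23 and 37, and the chemokine receptor gene cxcr4b had 2 and 3 against 27 and 31. The marker that rose, lygl1, named after its values were seen, had 19 and 48 against 6 and 6 (adjusted p = 0.0490 by limma).

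Endothelial markers were also lower where slc40a1, hmox1a and steap4 were lower. Of 14 tested, 2 rose and 10 fell, beside 16.1% higher and 18.0% lower over all tested genes. The 22 rows summed to 207 and 153 in tp1:EGFP+ against 943 and 648 in myl7:EGFP+. Mural and smooth muscle markers moved with tfa and tfr1b. Of 8 tested, 7 rose and 0 fell, and the 13 rows summed to 2847 and 4904 in tp1:EGFP+ against 812 and 1314 in myl7:EGFP+. Of these sums acta2 gave 1083 and 3022 against 128 and 134. The marker rgs5b, which was not called, gave 353 and 545 against 438 and 1032, and both were named after their values were seen. Of 8 tested epicardial and fibroblast markers 3 rose and 1 fell, with sums of 529 and 553 against 589 and 546, and of 2 tested thrombocyte markers 1 rose and 1 fell, with sums of 136 and 167 against 31 and 12. The part of RNA from such cells in the values of the iron genes was not tested.

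The iron regulatory proteins sense iron in the cytosol, and their genes lay in opposite directions. The ireb2 gene (ENSDARG00000021466, chromosome 25, 6228496 to 6261693, minus strand, GRCz11) had 76 and 48 normalized counts in tp1:EGFP+ replicates 1 and 2, against 14 and 3 in myl7:EGFP+. Both reporter-active values stood above the others, by a gap of 34. The myl7:EGFP+ value of 3 stood for about 1 read, against about 16 in tp1:EGFP+ replicate 2, so the ratio within replicate 2 was 15.3 with a 95% exact binomial interval of 2.38 to 643. Within replicate 1 the ratio was 5.43. The log2 difference was 2.99 with all 4 libraries, against 2.03 without myl7:EGFP+ replicate 2 and 3.94 without myl7:EGFP+ replicate 1.

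The aco1 gene encodes the protein that is a cytosolic aconitase when it holds an iron-sulphur cluster and an RNA-binding regulator without it. Located on the minus strand of chromosome 7 (ENSDARG00000026376, 71463106 to 71486162, GRCz11), it had 1 and 0 normalized counts in tp1:EGFP+ against 40 and 12 in myl7:EGFP+. Its groups did not overlap, and the myl7:EGFP+ replicate 2 value stood for about 4 reads. For ireb2 replicate 2 was the lower library of each group, the reverse of fth1a. Its log2 differences between the replicates were -0.65 in tp1:EGFP+ and -1.91 in myl7:EGFP+. For aco1 replicate 2 was lower in myl7:EGFP+, while the 1 and 0 of tp1:EGFP+ give no direction. Over all tested genes the median of this difference was -0.11 in tp1:EGFP+ and -0.14 in myl7:EGFP+.

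**Figure D3:**
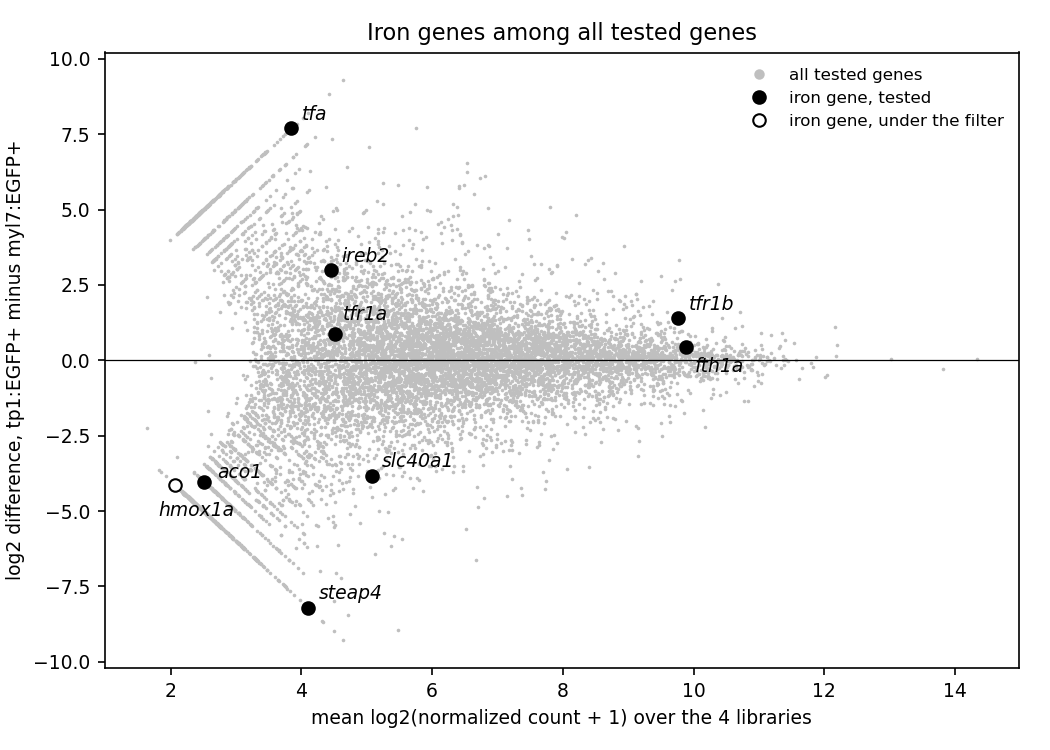
Log2 difference between the groups (tp1:EGFP+ minus myl7:EGFP+, mean of 2 libraries each) against the mean log2(value + 1) over the 4 libraries, for the 9921 tested genes (grey) and the 9 iron genes (black, with hmox1a open because it was under the filter). The genes tfa and steap4 lie on the edges formed by genes listed at 0 in both libraries of a group, and fth1a and tfr1b lie at the right, with high mean values.

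In the genome the 9 genes were scattered over 7 chromosomes. The genes tfa and tfr1a were both on chromosome 2, 11.91 Mb apart with 171 genes of the table between them, and fth1a and aco1 were both on chromosome 7, 58.53 Mb apart with 806 genes between them. No member overlapped another gene of the table. Of the 9 genes, 5 carried gene ontology terms in the deposited table, and all 5 (tfr1a, fth1a, slc40a1, ireb2 and aco1) had the term iron ion homeostasis. Of the other 11 genes with this term, 7 were tested, of which 0 were called by limma and 1 had an unadjusted p under 0.05, beside 34.1% called over all tested genes.

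Genes with the values most like tfa, slc40a1 and steap4 were looked for by the Euclidean distance of log2(value + 1) over the 4 libraries. Nearest to tfa were etnppl, pip5k1aa and kalrnb, at distances of 0.29, 0.47 and 0.49. Near slc40a1 were tcf7l1a and ank2a, at 0.45 and 0.52. Nearest to steap4 were igf1rb, scn5lab and cavin1a, at 0.33, 0.45 and 0.50. With 4 libraries, such likeness mostly means a similar level in each group.

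Beyond the 9 genes, 141 symbols of iron handling in 7 lists gave 107 rows, of which 87 were tested by limma on log2(value + 1). Of these, 7 rose and 14 fell (8.05% and 16.1%), beside 16.1% higher and 18.0% lower over all tested genes, or 34.1% called in either direction. The median log2 difference was -0.12 over the 87 genes and 0.01 over all tested genes. Of the 21 called genes, few kept their call when a library was left out. All 21 kept their sign in these fits, which was fixed in advance because the groups of each gene did not overlap. With a single library left in a group, calls over all genes were fewer too, at 137 to 365 lower and 69 to 271 higher genes.

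**Figure D4:**
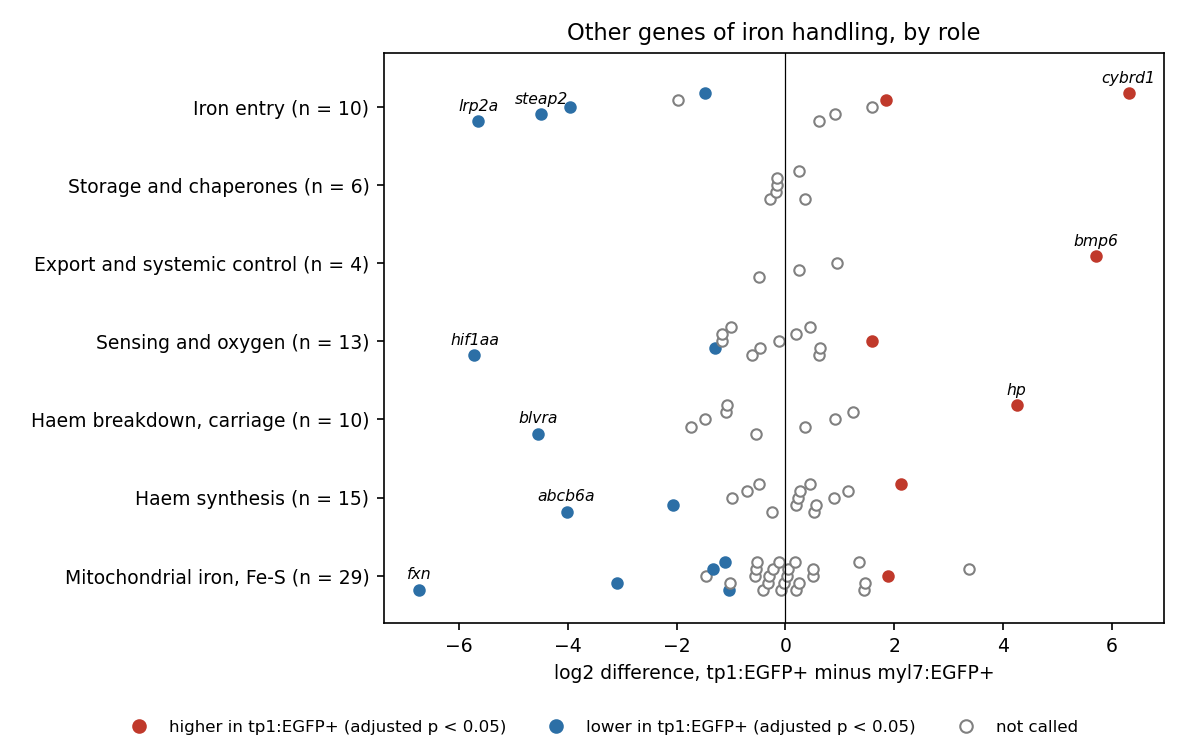
Log2 difference between the groups (tp1:EGFP+ minus myl7:EGFP+) of the 87 tested genes in 7 lists of iron handling, with called genes filled (red higher, blue lower, limma adjusted p under 0.05) and others open. Points are spread vertically within a list for legibility. Called genes lie on both sides, and the 6 tested storage genes lie close to 0.

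Among 10 tested genes of iron entry, 2 rose and 4 fell. The genes that rose were cybrd1 and frrs1b, and steap2 was among those that fell, as given above. The gene slc11a2, which encodes the ferrous iron transporter of the endosome and gut, had 78 and 63 in tp1:EGFP+ against 241 and 162 in myl7:EGFP+ (log2 difference -1.48 ± 0.31 SE, adjusted p = 0.0229 by limma). The endocytic receptor gene lrp2a had 0 and 0 against 71 and 34 (adjusted p = 0.00246 by limma). The metal transporter gene slc39a14, named after its values were seen, had 0 and 3 against 48 and 19 (adjusted p = 0.0249 by limma).

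Of the 6 tested genes of storage and iron chaperoning, 0 were called by limma and 0 had an unadjusted p under 0.05. The iron chaperone gene pcbp2 had 933 and 1112 in tp1:EGFP+ against 683 and 930 in myl7:EGFP+ (adjusted p = 0.502). The ferritin turnover receptor gene ncoa4, named after its values were seen, had 564 and 507 against 444 and 451 (adjusted p = 0.493 by limma).

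Of 4 tested genes of export and systemic control, 1 rose and 0 fell. It was bmp6, a ligand that induces hepcidin in the mammalian liver, with 74 and 36 in tp1:EGFP+ against 0 and 0 in myl7:EGFP+ (adjusted p = 0.00238 by limma). Hepcidin itself, hamp, and hjv, a co-receptor gene of its induction, both named after their values were seen, were at 0 in all 4 libraries. The ferroxidase gene hephl1a, named after its values were seen, had 362 and 235 against 197 and 115 and was not called (adjusted p = 0.122 by limma).

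Among 13 tested genes of iron and oxygen sensing, 1 rose and 2 fell. The hypoxia-inducible factor gene hif1aa fell to 3 and 6 in tp1:EGFP+, against 288 and 267 in myl7:EGFP+ (log2 difference -5.72 ± 0.45 SE, adjusted p = 0.00213 by limma). Its paralogue hif1ab, named after its values were seen, had 1329 and 1112 against 806 and 774 and was not called (adjusted p = 0.227 by limma). The factor gene epas1a fell by 1.29 on the log2 scale, with 85 and 72 against 206 and 180. In contrast hif1an, which encodes an oxygen-dependent hydroxylase of these factors, rose to 378 and 307 in tp1:EGFP+, against 112 and 112 in myl7:EGFP+ (adjusted p = 0.00903 by limma). The gene fbxl5, whose product marks the ireb2 protein for breakdown in mammals and which was named after its values were seen, had 274 and 238 against 240 and 112 (adjusted p = 0.299 by limma).

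Of 10 tested genes of haem breakdown and carriage, 1 rose and 1 fell. The haptoglobin gene hp, whose product binds free haemoglobin, had 25 and 27 in tp1:EGFP+ against 1 and 0 in myl7:EGFP+ (adjusted p = 0.00467 by limma). The biliverdin reductase gene blvra, which acts in the step after haem oxygenase, had 0 and 0 against 23 and 22 (adjusted p = 0.00213 by limma). The constitutive haem oxygenase gene hmox2a, named after its values were seen, had 61 and 66 against 110 and 171 and just missed the threshold (adjusted p = 0.0564 by limma).

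Of 15 tested genes of haem synthesis, 1 rose and 2 fell. The ferrochelatase gene fech, the enzyme that puts iron into haem, had 20 and 21 in tp1:EGFP+ against 5 and 3 in myl7:EGFP+ (adjusted p = 0.0252 by limma). The porphyrin transporter gene abcb6a had 1 and 0 against 22 and 22, and the hydroxymethylbilane synthase gene hmbsb had 4 and 6 against 35 and 16 (adjusted p = 0.00515 and 0.0490 by limma). The entry enzyme gene alas1, named after its values were seen, had 823 and 891 against 1012 and 1918 (adjusted p = 0.30 by limma).

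Of 29 tested genes of mitochondrial iron and iron-sulphur cluster assembly, 1 rose and 5 fell. Frataxin, fxn, which takes part in cluster assembly, fell to 1 and 0 in tp1:EGFP+, against 179 and 124 in myl7:EGFP+ (log2 difference -6.73 ± 0.57 SE, adjusted p = 0.00218 by limma). The cysteine desulphurase gene nfs1 had 117 and 113 against 272 and 314, and the cluster protein gene cisd2 had 2 and 6 against 31 and 47 (adjusted p = 0.0131 and 0.0193 by limma). The other genes that fell, named after their values were seen, were nfu1 and fdx2, with log2 differences of -1.03 and -1.12. The gene that rose was nubpl, which serves cluster delivery to respiratory complex I, with 155 and 176 against 33 and 59 (adjusted p = 0.0192 by limma).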

How the data were processed

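The submitters' processing notes list DESeq2 1.26.0, STAR 2.6.1d, Trimmomatic 0.39, and featureCounts with Subread 1.6.5, on GRCz11 (danRer11). How strand, settings and shared reads were handled was not given in the sources used here. Per the labels' protocols, cDNA was made with a SMART-Seq v4 kit from low nanogram amounts of RNA. The authors deposited a score for each gene and library, a read count normalized between libraries and rounded to a whole number, so no count model was fitted. All 4 columns were used as deposited.

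Values were tested with limma 3.58.1 (R 4.3.3, trend option) on log2(value + 1), which understates changes of low genes, for the 9921 genes whose mean was 10 or more. P-values were Benjamini-Hochberg adjusted over all of them, with a threshold of 0.05. The procedure was tested on simulated data. Intervals are exact Clopper-Pearson intervals on estimated reads, for counting error only. Python 3.11.15, pandas 2.3.3, numpy 2.4.6 and matplotlib 3.10.9 were used.

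The 9 genes and all lists were chosen with earlier results of these data known. Named list genes were up to 4 called genes with the smallest p per list, or the 2 most abundant where 0 were called. Others are marked as named after their values were seen. Alternatives were other pseudocounts, filters, scalings and limma options, the replicate number as a block, and each library left out. Gene names are those of the deposited table, and all 9 gene IDs were found in a reference name table. Sequences were not analysed here. Some genes are not reported here.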

Additional observations from a re-analysis of the deposited data

How the results depend on the processing

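Under 10 and 0.5 as pseudocounts, other scalings, other limma options and no filter, the numbers of genes called stayed within 1.5 times those reported, for all genes and for the iron lists. With a mean of at least 50 required, 709 genes were higher and 634 lower over all genes, and 4 and 7 in the iron lists, since fewer genes were tested. With the replicate number as a block, 2845 genes were higher and 2876 lower, and 19 and 28 in the iron lists, with all 21 called iron genes among them. Across 9921 genes, replicate 2 minus replicate 1 correlated between the groups (r = 0.442), but the labels do not say that a number marks shared material, and 2 pairs are too few to show it. Leaving out 1 library gave 69 to 271 higher and 137 to 365 lower genes over all genes, and 0 to 1 higher and 2 to 3 lower in the iron lists. In 8 of the 9 genes the groups do not overlap, so leaving out 1 library or changing the pseudocount could not change the sign. Of the 9 genes' log2 differences, 97 of 99 recomputed values kept their sign, and nothing is read from this count. The exceptions were fth1a without tp1:EGFP+ replicate 2 (-0.19) and without myl7:EGFP+ replicate 1 (-0.20), where the groups no longer hold the same replicate numbers. For tfr1b the range was 1.23 to 1.55 and for slc40a1 -4.34 to -2.93. The differences of tfa, steap4, slc40a1, hmox1a and aco1 depended on the pseudocount, because a group was at or near 0. That of ireb2 went from 2.99 to 2.00 with a pseudocount of 10, a shift smaller than its replicate spread. Depth limits tfr1a, slc40a1, ireb2, hmox1a, aco1, tfa and steap4, which had 9 or fewer reads in at least 1 library of replicate 2. For tfa and steap4 this was the library at 0, against about 80 and 87 reads in the other group.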

Other observations

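Gene ontology terms in the deposited table gave a wider view of iron-dependent proteins, looked at after the data were seen and with the 9 genes left out. Of 25 tested genes with the term iron ion binding, 7 rose and 6 fell by limma, beside 16.1% higher and 18.0% lower over all tested genes. Those that rose included both hbba1 globin rows, the retinoic acid hydroxylase gene cyp26b1 and the collagen hydroxylase genes p4ha1b and plod3, and those that fell included the vitamin D hydroxylase genes cyp2r1 and cyp24a1. Of 22 tested genes with the term iron-sulfur cluster binding, 2 rose and 2 fell, and of 20 with the term heme binding, 5 rose and 4 fell. The gene meltf, whose protein is named serotransferrin in the deposited table, had 6 and 6 normalized counts in tp1:EGFP+ and 0 and 0 in myl7:EGFP+, under the filter of the test.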
